A study of Mus musculus with 5 samples.

Results

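Cholesterol synthesis and its control by SREBP2 were examined through 27 genes in GL261 cells, a mouse glioma line. The cells had been given sodium propionate, or sodium chloride as the control salt, for 24 h, and both salts are labelled at 1 uM, a low dose for propionate whose unit could not be checked. The members are 8 genes of the path from acetyl-CoA to farnesyl and geranylgeranyl diphosphate, 12 genes from squalene to cholesterol and 7 genes that sense, regulate or store sterols, chosen by gene name from the 55485 reference genes listed in the files. All 27 were found, and all 27 were among the 13876 genes tested. Chloride had 3 libraries (replicates 1, 2 and 3) and propionate had 2 (replicates 2 and 3). A propionate replicate 1 was not analysed here. The libraries were made from total RNA of this 1 cell line, and the labels do not say that they came from separate cultures. The p-values therefore measure the spread among these libraries alone, and that spread may be technical.

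Cells build cholesterol from acetyl-CoA by a long chain of enzymes in the cytosol and endoplasmic reticulum, whose intermediates also feed protein prenylation, dolichol and ubiquinone. When membrane sterol is low, SCAP carries the precursor of the transcription factor SREBP2 from the endoplasmic reticulum to the Golgi, where it is cleaved, and the released factor raises the genes of the pathway together. When sterol is high, INSIG proteins hold SCAP back and the genes go quiet together. Brain cholesterol is made largely within the brain, since lipoproteins of the blood hardly enter it.

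The regulatory sequences that the members share are shown here because SREBP2 acts on promoters together with NF-Y, which binds the CCAAT box. RefSeq promoters (GRCm38.p6, 250 bases before to 50 after each annotated start) were found for 23 of the 27 members, with 29 starts in all. Fdps, Fdft1, Sqle and Stard4 had no entry matched. The letters CCAAT, on either strand, were present in at least 1 promoter of 21 of the 23 members (91.3%), against 44.6% of the 9489 tested genes that had a promoter. Counted by promoter it was in 21 of 29, against 37.4% of all 32851 promoters. Pmvk had the box only at start 89454541, while 96.2% to 99.8% of its TPM came from a transcript starting at 89459118. Insig2 had it only at start 121332589, while its leading transcript, on the minus strand, started at 121328111. GGGCGG, the box of the factor Sp1, was also present in 21 of 23 members (91.3%), against 69.4% of the tested genes, and in 24 of 29 promoters, against 35.7% of all. The E-box CACGTG, which SREBPs can also bind, was present in 5 members (Hsd17b7, Sc5d, Dhcr7, Insig1 and Scap; 21.7%), against 11.9% of tested genes, and in 6 of 29 promoters, against 7.15% of all. The sterol response element, searched on both strands as TCACNCCAC, was present in 1.24% of all promoters and in 1.41% of tested genes. Among the 23 members with a promoter, Hmgcs1 had a match. Other spellings of the element were not searched, so the other members cannot be said to lack one. No match of 1 motif overlapped a match of another in these promoters. These matches are letters in a window and were not tested for binding.

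Promoter stretches of 150 bases that end just before the start are printed for Hmgcs1, with the match to TCACNCCAC, and Mvk, with the most CCAAT boxes. Those of Mvd, Lbr and Mylip, members whose values are described in full later, are printed too. Capitals mark the motifs named above, on either strand, and each sequence is given 5′ to 3′ on the gene's strand.
Hmgcs1 (chr13:119690201-119690350, plus strand): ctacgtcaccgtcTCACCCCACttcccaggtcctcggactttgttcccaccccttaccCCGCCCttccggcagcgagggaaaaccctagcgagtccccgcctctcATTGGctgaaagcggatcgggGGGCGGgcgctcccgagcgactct
Mvk (chr5:114444119-114444268, plus strand): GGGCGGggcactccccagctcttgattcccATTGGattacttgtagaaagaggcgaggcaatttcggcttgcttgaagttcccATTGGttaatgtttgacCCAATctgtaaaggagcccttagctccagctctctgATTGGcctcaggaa
Mvd (chr8:122443423-122443572, minus strand): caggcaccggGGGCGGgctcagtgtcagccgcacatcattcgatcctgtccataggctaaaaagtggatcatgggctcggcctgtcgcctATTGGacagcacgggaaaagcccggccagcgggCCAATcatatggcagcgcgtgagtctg
Lbr (chr1:181842402-181842551, minus strand): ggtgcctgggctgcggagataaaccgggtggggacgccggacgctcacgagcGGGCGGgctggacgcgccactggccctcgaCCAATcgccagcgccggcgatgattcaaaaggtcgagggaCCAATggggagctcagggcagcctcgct
Mylip (chr13:45389592-45389741, plus strand): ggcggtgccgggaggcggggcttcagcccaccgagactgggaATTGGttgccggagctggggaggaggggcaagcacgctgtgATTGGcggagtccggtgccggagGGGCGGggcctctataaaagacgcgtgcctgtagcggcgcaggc
In Hmgcs1 the sterol response element lay 137 to 129 bases before the start, and a CCAAT box followed at 45 to 41 bases before it. Mvk held 5 CCAAT boxes in its 250 bases, the one nearest the start at 14 to 10 bases before it. In Lbr the boxes lay 68 to 64 and 28 to 24 bases before the start, in Mvd 60 to 56 and 27 to 23 bases, and in Mylip the nearest lay 67 to 63 bases before it.

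**Figure D1:**
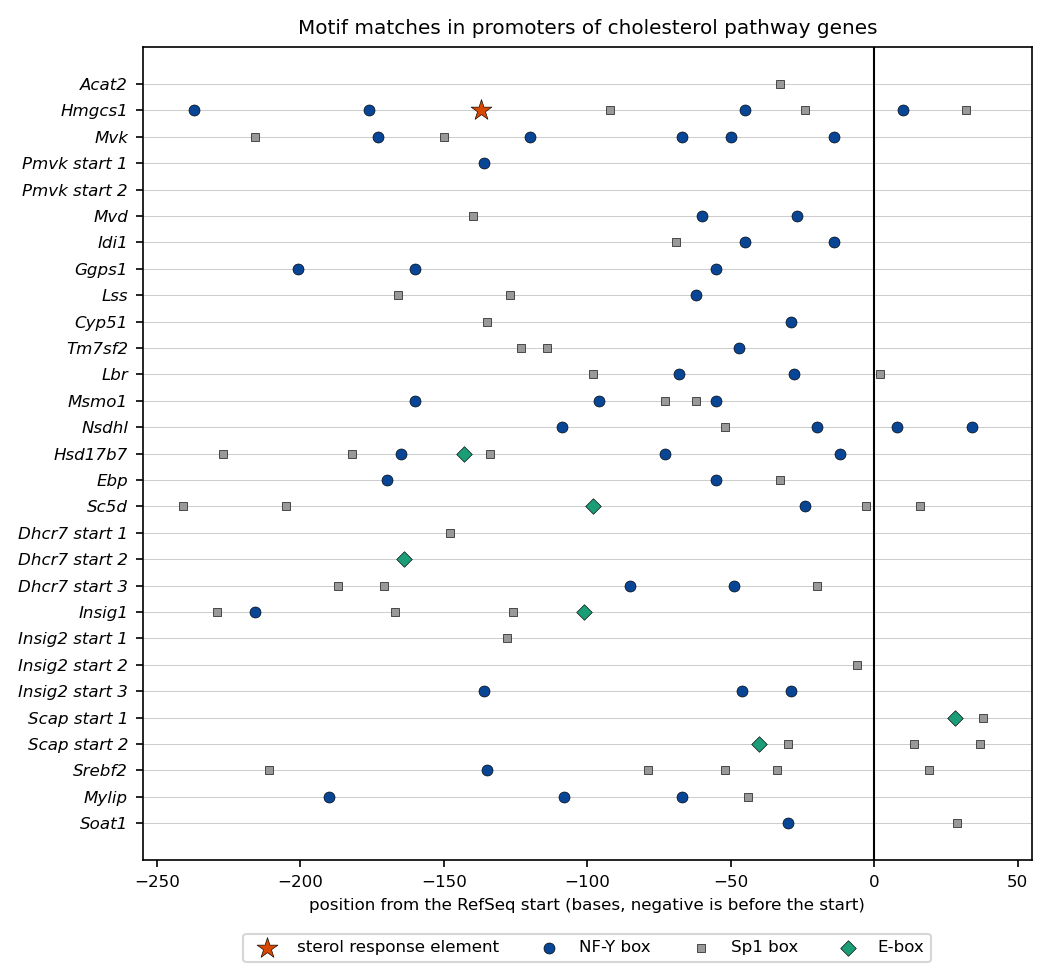
Positions of 4 motifs in the RefSeq promoters of 23 members, in bases from the annotated start (negative values lie before it); members with more than 1 start have a row for each. Blue circles are CCAAT boxes, present in 21 of the 23 genes. Grey squares are Sp1 boxes, green diamonds E-boxes, and the single star is the match to the searched sterol response element (TCACNCCAC) in Hmgcs1.

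No single cholesterol gene was called between propionate and chloride; the 27 were not tested as a group. None of the members passed an adjusted p of 0.05 (limma with Benjamini-Hochberg adjustment over all 13876 genes), where 1.82% of all tested genes were called, 182 higher (1.31%) and 70 lower (0.504%). With TPM rescaled to protein-coding genes, where 11963 protein-coding genes were tested in place of the 13876 genes, the calls were 629 higher and 405 lower. None of the 27 had an unadjusted p under 0.05 either, against 16.8% of all tested genes, and the smallest was 0.0648, for Mylip. A second limma fit to the same libraries, with voom on aligned bases, also called no member. It gave 4 members an unadjusted p under 0.05, against 24.2% of all genes in that fit. The change was above 0 in 13 members and below 0 in 14, with a median of -0.052 on the log2(TPM + 1) scale, beside -0.026 over all tested genes. Of all tested genes 44.5% had a change above 0. In 26 of 27 members the change was smaller than 0.2 in either direction, as it was in 64.2% of all tested genes. The propionate and chloride libraries did not overlap in 5 members (18.5%), against 34.6% of all tested genes: Hmgcs1, Sqle and Tm7sf2 were higher in both propionate libraries (14.8% of all tested genes were) and Idi1 and Lbr lower (19.7% were). The 95% interval of every member contained 0. Over the 27 members these intervals reached from a fold of 0.710 at the lowest (Lss) to 1.54 at the highest (Mylip), without adjustment for their number. The members were measured with about the precision of other genes: their median residual SD was 0.12, beside 0.13 over all tested genes.

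Levels are gene TPM, a length-scaled share of all transcripts summed over the gene's transcripts, so they can be compared between genes. The members' mean level in chloride ranged from 6.10 TPM (Hsd17b7) to 88.5 TPM (Msmo1), a 14.5-fold span, with a median of 15.7 TPM beside 11.7 TPM over all tested genes. In these libraries 1 TPM stood for a per-base coverage of 4.73 to 4.99. Above 30 TPM stood 6 members, in the order Msmo1, Fdps, Lbr, Hmgcs1, Ebp and Insig1. At the other end, 5 members lay under 10 TPM: Sc5d, Nsdhl, Mvd, Tm7sf2 and Hsd17b7. Some neighbours in the order lay close. The SD ranges of Ebp (35.3 ± 2.18 TPM, SD, n = 3) and Insig1 (32.8 ± 1.35) overlapped, although Ebp was the higher of the pair in every library. Msmo1 (88.5 ± 1.57) and Fdps (53.5 ± 0.689) were far apart.

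**Figure D2:**
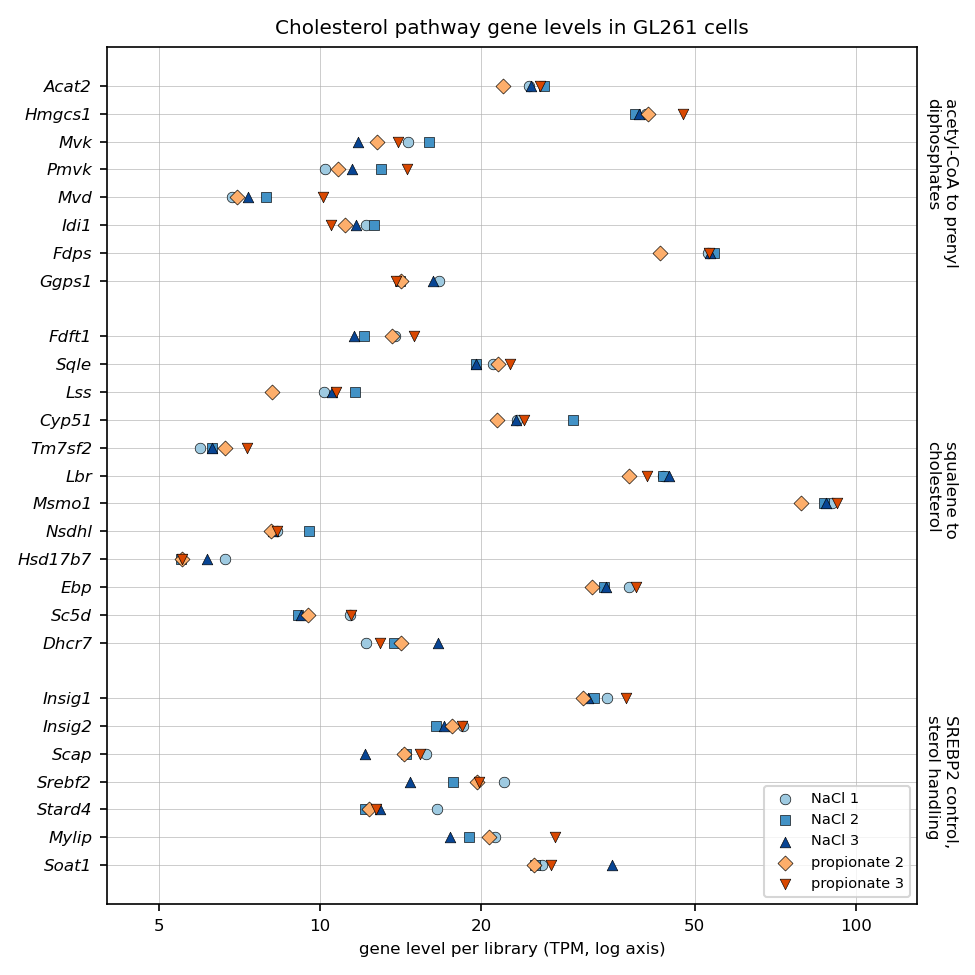
Gene level in TPM (log axis) of the 27 members in each of the 3 chloride (NaCl, blue) and 2 propionate (orange) libraries, 1 point per library, grouped by role. In 22 members the libraries of the groups overlap; in Hmgcs1, Sqle and Tm7sf2 both propionate points lie above all chloride points, and in Idi1 and Lbr below.

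The path from acetyl-CoA to the prenyl diphosphates had 8 members, of which 3 lay above 0 and 5 below, with a median change of -0.071 and none called. Acat2 (chromosome 17, 12942890 to 12960747, mm10), the cytosolic thiolase that joins acetyl-CoA units, stood at 24.5, 26.2 and 24.8 TPM in chloride and 22.0 and 25.7 TPM in propionate, with replicate 2 below the chloride range. Hmgcs1 (chromosome 13, 119690379 to 119708260), the cytosolic HMG-CoA synthase, was at 40.6, 38.6 and 39.3 TPM in chloride and 41.0 and 47.5 TPM in propionate. Both propionate libraries were thus above all 3 chloride libraries, replicate 2 barely so, and the change was 0.15 ± 0.099 (SE; interval -0.073 to 0.38; limma adjusted p = 0.477). Without propionate replicate 3 it was 0.050, and without propionate replicate 2 it was 0.26. The kinases that phosphorylate mevalonate followed no common direction. Mvk (chromosome 5, 114444269 to 114460591) was at 14.6, 15.98 and 11.8 TPM in chloride and 12.8 and 13.98 TPM in propionate, inside the chloride range. Pmvk (chromosome 3, 89454541 to 89469013) was at 10.2, 13.0 and 11.5 TPM in chloride and 10.8 and 14.5 TPM in propionate, with only replicate 3 above the chloride range.

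Mvd (chromosome 8, 122433601 to 122443422), the decarboxylase that makes isopentenyl diphosphate, had the highest change of these 8 genes. It was at 6.85, 7.94 and 7.35 TPM in chloride and 6.98 and 10.1 TPM in propionate, so that propionate replicate 2 lay within the chloride range and replicate 3 above it (0.17 ± 0.16, limma adjusted p = 0.636). Idi1 (chromosome 13, 8885501 to 8892451), the isomerase that makes dimethylallyl diphosphate, was at 12.2, 12.6 and 11.7 TPM in chloride and 11.1 and 10.5 TPM in propionate. Both propionate libraries were below the chloride range, by a small step (-0.15 ± 0.10, limma adjusted p = 0.491). Fdps (chromosome 3, 89093588 to 89101959), the farnesyl diphosphate synthase at the branch to sterols and prenyl groups, had the lowest change of the 8. It was at 52.9, 54.3 and 53.5 TPM in chloride and 43.1 and 53.2 TPM in propionate, and the change of -0.16 ± 0.11 (limma adjusted p = 0.509) rested on propionate replicate 2, since without that library it was -0.0089. Ggps1 (chromosome 13, 14050659 to 14063488), which makes geranylgeranyl diphosphate for protein prenylation, was at 16.7, 14.1 and 16.2 TPM in chloride and 14.1 and 13.8 TPM in propionate, where chloride replicate 2 lay between the propionate values.

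From squalene to cholesterol, 5 of 12 members lay above 0 and 7 below, with a median of -0.052 and none called. Fdft1 (chromosome 14, 63145150 to 63179578), the squalene synthase that starts the sterol branch, had the highest change, at 13.8, 12.1 and 11.6 TPM in chloride and 13.6 and 15.0 TPM in propionate (0.18 ± 0.11, interval -0.081 to 0.45, limma adjusted p = 0.467). Chloride replicate 1 overlapped the propionate values. Sqle (chromosome 15, 59315077 to 59331192), the squalene epoxidase and a rate-limiting step, was at 20.98, 19.5 and 19.5 TPM in chloride and 21.5 and 22.6 TPM in propionate. Its groups did not overlap, and the step was small (0.13 ± 0.097, limma adjusted p = 0.538). Lss (chromosome 10, 76531588 to 76557138), which closes the rings to give lanosterol, had the lowest change, at 10.2, 11.6 and 10.5 TPM in chloride and 8.13 and 10.7 TPM in propionate (-0.19 ± 0.13, limma adjusted p = 0.536). As in Fdps, propionate replicate 2 alone lay below the chloride range, and without it the change was -0.0070.

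The demethylation of lanosterol starts with Cyp51 (chromosome 5, 4081145 to 4104746), at 23.3, 29.6 and 23.2 TPM in chloride and 21.4 and 23.98 TPM in propionate. Tm7sf2 and Lbr encode sterol reductases that act on the same double bond, and Lbr also anchors chromatin at the nuclear lamina. Their groups did not overlap, in opposite directions. Tm7sf2 (chromosome 19, 6062821 to 6068375) was at 5.97, 6.29 and 6.27 TPM in chloride and 6.65 and 7.32 TPM in propionate (0.15 ± 0.11, limma adjusted p = 0.549). Lbr (chromosome 1, 181815335 to 181843046) was at 43.7, 43.6 and 44.7 TPM in chloride and 37.7 and 40.7 TPM in propionate (-0.16 ± 0.090, interval -0.37 to 0.044, limma adjusted p = 0.408). Lbr was by far the more abundant of the pair, at 43.98 ± 0.644 TPM beside 6.17 ± 0.181 TPM in chloride (SD, n = 3).

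Among the remaining steps, Msmo1 (chromosome 8, 64718139 to 64733792), the methyl oxidase that begins removal of the methyl pair, was at 90.3, 87.3 and 87.9 TPM in chloride and 78.9 and 92.3 TPM in propionate. Its partners in that reaction were much lower. The decarboxylating dehydrogenase Nsdhl was at 8.32, 9.52 and 8.17 TPM in chloride and 8.08 and 8.30 TPM in propionate, and the keto-reductase Hsd17b7 at 6.65, 5.51 and 6.14 TPM and at 5.54 TPM in both propionate libraries. Ebp, the sterol isomerase, was at 37.8, 33.9 and 34.1 TPM in chloride and 32.2 and 38.9 TPM in propionate, with the propionate libraries on either side of the chloride range (0.0064 ± 0.11). The desaturase Sc5d was at 11.4, 9.11 and 9.20 TPM in chloride and 9.47 and 11.4 TPM in propionate. Dhcr7, the reductase that turns the precursor shared with vitamin D into cholesterol, was at 12.2, 13.8 and 16.6 TPM in chloride and 14.2 and 12.9 TPM in propionate. In Hsd17b7 and Dhcr7 both propionate values lay within the chloride range, in Msmo1 and Ebp they lay on either side of it, and in Nsdhl (replicate 2, below) and Sc5d (replicate 3, above) 1 of them lay just outside.

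The sterol-sensing and control genes had 5 of 7 changes above 0 (44.5% over all tested genes), a median of 0.057 and none called. In none of the 7 were the groups separate, against 34.6% of all tested genes. Srebf2 (chromosome 15, 82147181 to 82205379), which encodes SREBP2 and is raised by its own product, varied more in chloride than between the groups, at 22.0, 17.7 and 14.7 TPM in chloride and 19.6 and 19.8 TPM in propionate (0.13 ± 0.15, limma adjusted p = 0.729). Scap (chromosome 9, 110333288 to 110384950), its escort, was at 15.7, 14.5 and 12.1 TPM in chloride and 14.3 and 15.4 TPM in propionate. The genes of the retention proteins also overlapped between the groups. Insig1 (chromosome 5, 28071363 to 28078662), itself a sensitive target of SREBP2, was at 34.3, 32.4 and 31.7 TPM in chloride and 31.0 and 37.3 TPM in propionate (0.052 ± 0.11, interval -0.20 to 0.30, limma adjusted p = 0.864). Insig2 (chromosome 1, 121304353 to 121332589), which responds less to SREBP2, was at 18.5, 16.5 and 17.0 TPM in chloride and 17.6 and 18.4 TPM in propionate.

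Mylip (chromosome 13, 45389742 to 45412472), a ubiquitin ligase induced by liver X receptors when sterol is plentiful, had the highest change of all 27 members. It was at 21.2, 18.9 and 17.4 TPM in chloride and 20.6 and 27.4 TPM in propionate, so that replicate 2 lay within the chloride range and replicate 3 above it (0.30 ± 0.14, interval -0.023 to 0.62, limma adjusted p = 0.333). Without propionate replicate 3 the change was 0.10, and without propionate replicate 2 it was 0.50; from reference transcripts alone it was 0.17. Stard4 (chromosome 18, 33199355 to 33213862), a soluble carrier of cholesterol, had the lowest change of this group, at 16.5, 12.1 and 12.9 TPM in chloride and 12.3 and 12.7 TPM in propionate (-0.12 ± 0.14, limma adjusted p = 0.708). This rested on chloride replicate 1, since without it the change was 2.0e-05. Soat1 (chromosome 1, 156424525 to 156474331), which esterifies cholesterol for storage, was at 25.96, 25.1 and 35.1 TPM in chloride and 25.1 and 26.9 TPM in propionate, with chloride replicate 3 alone high.

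**Figure D3:**
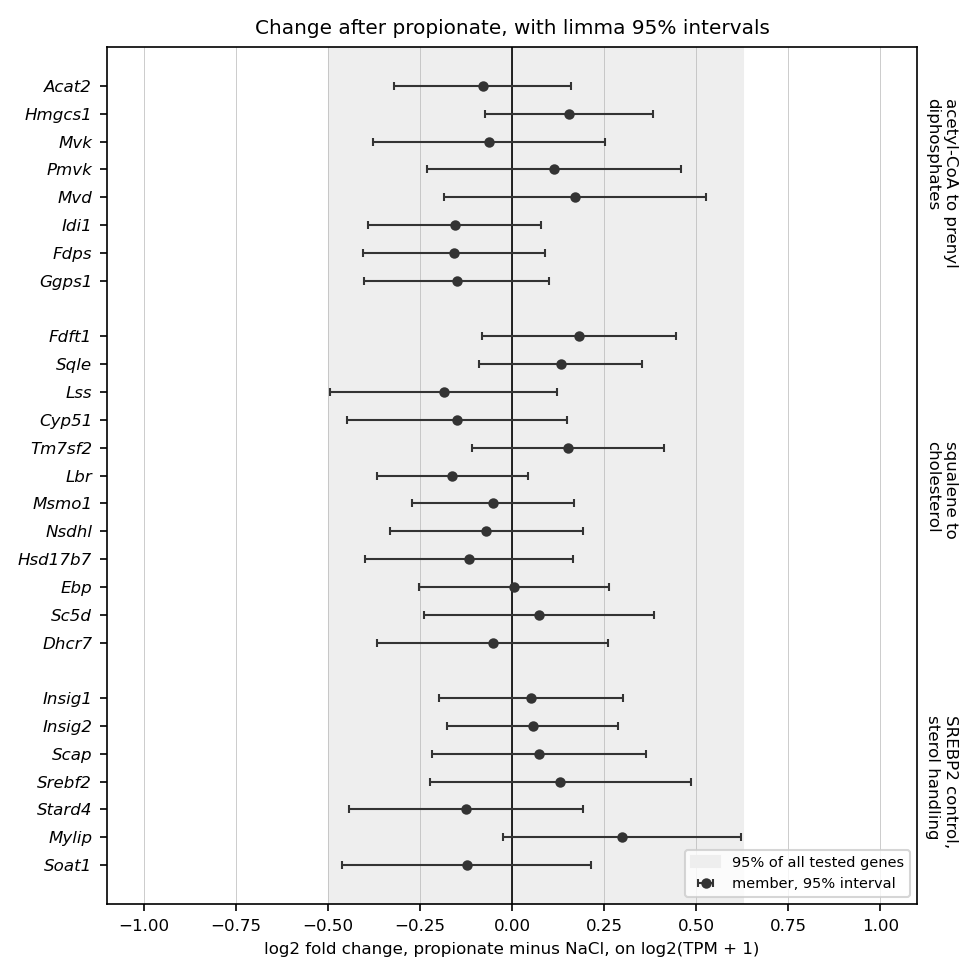
Log2 fold change (propionate minus chloride, on log2(TPM + 1)) of each of the 27 members with its limma 95% interval; the grey band holds 95% of the changes of all 13876 tested genes. Every interval crosses 0, and every point lies within the band, with Mylip the farthest from 0 at 0.30.

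The propionate libraries differed from each other in their make-up as well as in the members. Protein-coding genes held 45.2% of TPM in propionate replicate 2 and 50.3% in propionate replicate 3, with the chloride libraries at 49.2%, 47.7% and 46.7%. The members summed to 617, 602 and 595 TPM in chloride and to 560 and 637 TPM in propionate. Propionate replicate 3 was above propionate replicate 2 in 24 of 27 members, as it was in 74.99% of all tested genes and in 80.3% of tested protein-coding genes. After TPM was rescaled to sum over protein-coding genes alone, it was above in 12 of 27 members and in 50.3% of tested protein-coding genes. That scaling sets the protein-coding total equal in every library, which takes out a shift shared by protein-coding genes, and all members are protein-coding. An equal total does not by itself fix how many genes lie above. The cause of the change in balance was not tested. On that scale the members took 0.126%, 0.126% and 0.127% of protein-coding TPM in chloride and 0.124% and 0.127% in propionate. The rescaled values also gave no member past the threshold; the lowest adjusted p was 0.105, for Mylip, and the members' median change was -0.047. Mylip, Hmgcs1 and Lbr had an unadjusted p under 0.05 on that scale, as did 26.6% of all genes tested on it.

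**Figure D4:**
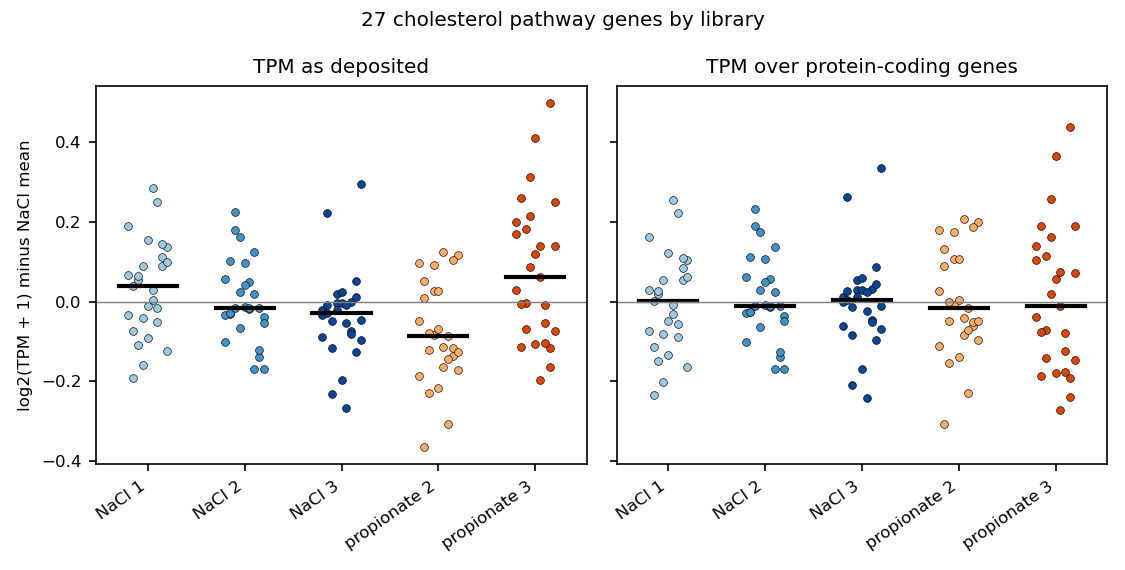
Each of the 27 members in each library as log2(TPM + 1) minus its chloride mean; bars are medians over the members. With TPM as deposited (left) the median is -0.087 in propionate replicate 2 and 0.061 in replicate 3, and after rescaling over protein-coding genes (right) the 5 medians lie close to 0.

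The gene totals were steadier than the transcripts that made them up. The 27 members had 168 reference transcripts and 23 that were assembled from the reads, which fell in 14 members. In 21 members the same transcript led in all 5 libraries, and in 6 (Hmgcs1, Mvk, Cyp51, Tm7sf2, Dhcr7 and Soat1) the leader differed between libraries. Dhcr7 was led by a different transcript in each library, with assembled transcripts at 85.9%, 5.22% and 4.37% of its TPM in chloride and 81.4% and 0% in propionate. The assembled share of Soat1 was 82.2% and 85.1% in chloride replicates 1 and 3 and 0% in the other libraries. In chloride replicate 3 it included 13.98 TPM from an assembled transcript of 1723 bases that was listed at 0 elsewhere, while the long transcripts of about the full gene span stood at 21.2, 19.3, 15.8, 20.3 and 21.4 TPM in the 5 libraries. Of the Cyp51 value of chloride replicate 2, its highest library, 49.9% (14.8 TPM) was likewise an assembled transcript. Its annotated span ran from 4082523 to 4192246, past the reference boundary at 4104746, which is the start side of this minus-strand gene. In Hmgcs1 the assembled transcript took 27.8 of 47.5 TPM in propionate replicate 3 and 2.55 to 11.2 TPM in the other libraries. The 4.56 TPM that an assembled transcript added to Mylip appeared in propionate replicate 3 alone, and its reference transcript stood there at 22.8 TPM.

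**Figure D5:**
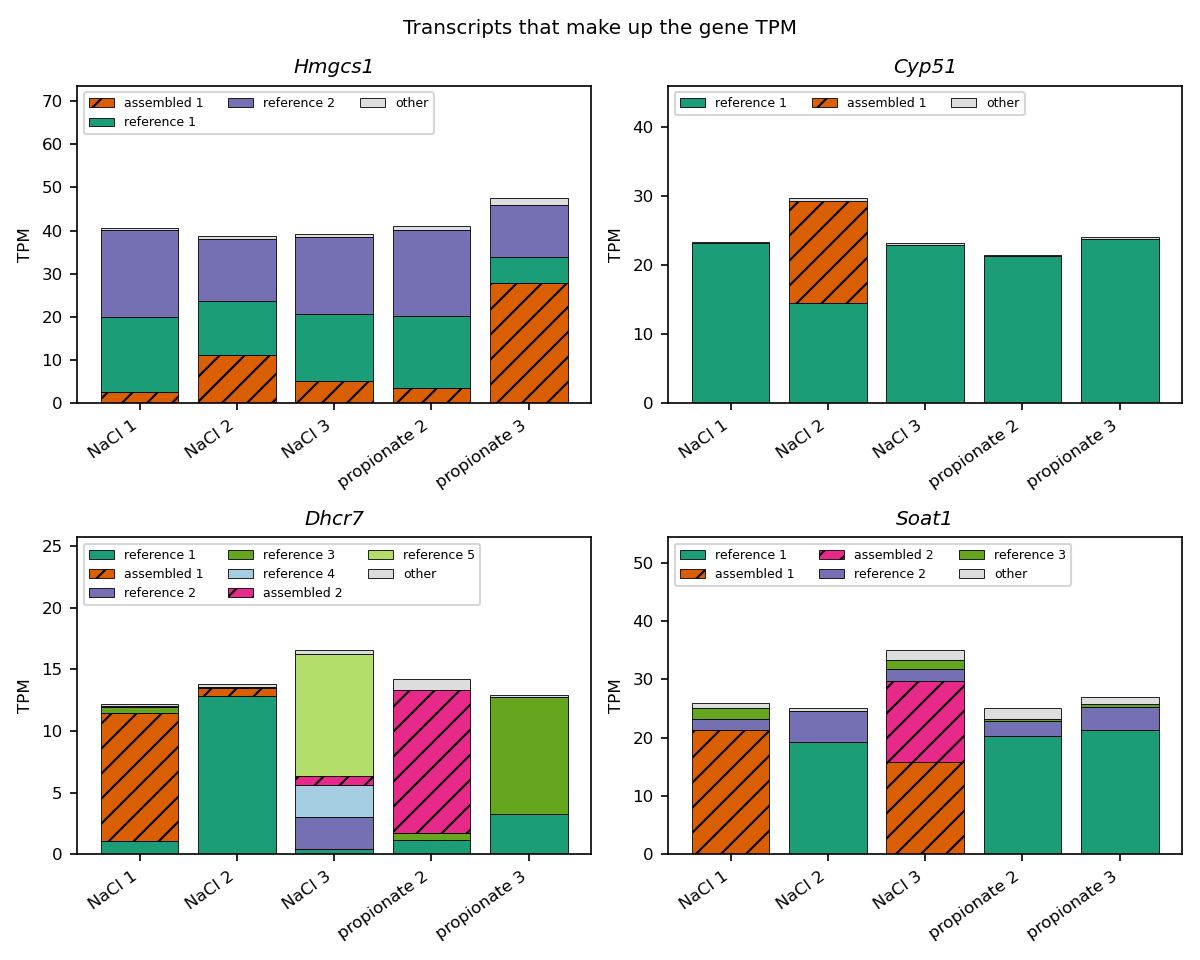
TPM of the transcripts of Hmgcs1, Cyp51, Dhcr7 and Soat1 in each library, stacked to the gene total; hatched parts are transcripts assembled from the reads, numbered by start, and grey is the sum of transcripts under 5% in every library. The leading transcript differs between libraries of 1 group in all 4 genes (in Hmgcs1 between the propionate libraries), while the totals differ less.

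The other genes around the pathway were described by 4 further lists, none of which held a gene called by limma, with 1, 0, 1 and 5 genes at an unadjusted p under 0.05 in the order given here. Of 13 tested genes of SREBP cleavage and sterol-regulated protein degradation, 4 lay above 0 and 9 below (median -0.098). The member of this list with the smallest p was Erlin1, of a membrane complex that degrades sterol-regulated proteins, at 21.7, 17.2 and 17.2 TPM in chloride and 14.2 and 13.2 TPM in propionate (-0.42 ± 0.13, limma adjusted p = 0.150). Of 15 genes of the isoprenoid branches, 2 lay above 0 and 13 below (median -0.14), where 44.5% of all tested genes lay above 0. The smallest p belonged to Rabggta, a subunit of the enzyme that prenylates Rab proteins, at 11.8 ± 1.47 TPM (SD, n = 3) in chloride and 9.26 ± 1.75 TPM (SD, n = 2) in propionate (limma adjusted p = 0.328). Of the 13 liver X receptor, oxysterol and efflux genes, 7 were tested, with 4 above 0 and 3 below (median 0.0098); Cyp27a1, a sterol hydroxylase, was at 3.61 ± 0.543 and 4.97 ± 0.800 TPM (limma adjusted p = 0.279).

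The list closest to the threshold was that of sterol uptake and transport inside the cell, with 22 of 23 genes tested, 14 above 0 and 8 below (median 0.063). Lipa, the lysosomal lipase that frees cholesterol from esters taken up by the cell, was at 25.8, 23.1 and 23.0 TPM in chloride and 32.2 and 39.1 TPM in propionate (0.55 ± 0.12, limma adjusted p = 0.0572). An unadjusted p under 0.05 was found for 5 of the 22 genes (22.7%, beside 16.8% of all tested genes). Besides Lipa these were Gramd1b, Tmem97, Lrp1 and Vapa, named after their values were seen. Tmem97, a SREBP2 target that binds a cholesterol transporter, was lower in both propionate libraries (43.4, 42.7 and 45.5 TPM in chloride, 33.0 and 34.95 TPM in propionate; limma adjusted p = 0.0934). Lrp1, a large lipoprotein receptor, was higher in both (26.1 ± 0.941 and 34.4 ± 2.78 TPM, limma adjusted p = 0.0982). Gramd1b, a carrier of cholesterol from the plasma membrane, was at 9.02 ± 1.46 and 5.33 ± 0.268 TPM (limma adjusted p = 0.0617), and Vapa, which tethers lipid carriers to the endoplasmic reticulum, at 78.1 ± 3.03 and 65.4 ± 2.79 TPM (limma adjusted p = 0.199).

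The ratio of coverage to FPKM in the files gave 7.19 to 7.63 Gb of aligned sequence per library, and the groups overlapped in it. Of 7 glioma and glial markers, Vim, Nes, Sox2, Cd44, Gfap and Pdgfra were above 3 TPM in all libraries and Olig2 stayed under 1 TPM. Pdgfra was at 11.6, 11.1 and 12.4 TPM in chloride and 22.6 and 22.4 TPM in propionate, and the list summed to 5633 to 7254 TPM in chloride and 6298 to 7063 TPM in propionate. The markers of other cell types were low: 7 of 9 of microglia and macrophages, all 4 endothelial, all 3 lymphocyte, 3 of 4 fibroblast and pericyte and all 4 neuronal genes were under 1 TPM in every library. The microglia and macrophage list summed to 6.69 to 8.08 TPM in chloride and 11.1 to 13.6 TPM in propionate, mostly from Cd68. Cd68 and Tmem119 were higher in both propionate libraries, and Csf1r was lower in both. The other genes of that list overlapped between the groups, with Itgam at 0 in all libraries. The fibroblast and pericyte list summed to 0.626 to 1.012 and 1.96 to 2.51 TPM, with Lum at 0. Its sum was all Pdgfrb in chloride, where Dcn and Rgs5 were also at 0. In propionate it was mostly Pdgfrb, at 2.29 and 1.91 TPM. Whether other cell types had a part in the values of Lipa, Lrp1 and Mylip was not tested. In bulk RNA, fewer cells of a type and less RNA per cell cannot be told apart.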

How the data were processed

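Libraries came from total RNA with a stranded kit (TruSeq). The tools in the submitters' processing notes are bcl2fastq, fastp, HISAT2 and StringTie, with mm10 as the build and no versions given. Coverage, FPKM and TPM of 157895 transcripts were estimated per library by StringTie 2.1.1, per the file headers. Its command sets no strand option, so reads of overlapping antisense genes may not have been told apart. The deposited TPM, FPKM and coverage values carry no read counts; TPM sums to 1000000 per library, small RNAs included.

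Transcript lines carry a gene name in some files and none in others (17443 transcripts), so names were pooled over the files and completed by transcript identifier from GENCODE M21 (GRCm38, the assembly of mm10). Gene TPM is the sum over reference transcripts plus assembled transcripts of the same locus and strand, each counted in the gene it overlaps most (12224 transcripts, 1540 of which overlap more than 1 gene). Genes with a mean of at least 1 TPM entered limma 3.58.1 (R 4.3.3, eBayes with trend, group as the only term, all 5 libraries, two-sided) on log2(TPM + 1), which understates the change of low genes. An exact permutation test of 3 against 2 libraries cannot give a p under 0.1.

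The members and lists were chosen with earlier results of these data known. The rule for values in full took the highest and lowest change in each role group; Hmgcs1, Idi1, Sqle, Tm7sf2, Lbr, Srebf2 and Insig1 were given their statistics too, chosen after their values were seen; of each related list the gene with the smallest p is named, since none passed. The alternatives are described in the closing section.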

Additional observations from a re-analysis of the deposited data

How the results depend on the processing

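No member passed the threshold in any of 15 alternatives, where the lowest adjusted p was 0.0898 (Fdft1, voom on aligned bases); each alternative gave 0 to 4 members an unadjusted p under 0.05. In 14 alternatives the members' 95% intervals stayed within folds of 0.620 to 1.78. With reference transcripts only they reached from -2.70 to 3.20 on the log2 scale. Of 405 recomputed member changes, 383 kept their sign, which says little for changes this near 0.

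The members' median change was 0.026 with voom, 2.0e-05 with the replicate block, and -0.087 to 0.061 with 1 library left out. With reference transcripts only, Hmgcs1 was at -0.27, Cyp51 at 0.17, Insig2 at -0.24 and Soat1 at 1.48, and Mylip was at 0.17, Mvk at -0.37, Dhcr7 at -0.28, Scap at 0.15, Sqle at 0.22, Ggps1 at -0.060 and Msmo1 at -0.031; with voom Soat1 was at 0.10. With 1 library left out, the changes ranged from -0.19 to 0.030 for Acat2, -0.18 to 0.027 for Mvk, -0.083 to 0.31 for Pmvk, -0.068 to 0.41 for Mvd, -0.16 to 0.061 for Msmo1, -0.13 to 0.14 for Ebp, -0.050 to 0.20 for Sc5d, -0.15 to 0.058 for Dhcr7, -0.079 to 0.18 for Insig1, -0.024 to 0.15 for Scap, -0.0018 to 0.27 for Srebf2, -0.21 to 2.0e-05 for Stard4 and -0.21 to 0.024 for Soat1. Among members that kept their sign, the change was over 1.5 times smaller in size without propionate replicate 3 in Hmgcs1 (0.050), Fdft1 (0.12), Tm7sf2 (0.092), Mylip (0.10) and Insig2 (0.027), without propionate replicate 2 in Fdps (-0.0089), Lss (-0.0070), Lbr (-0.11) and Cyp51 (-0.070), without chloride replicate 2 in Cyp51 (-0.037), Nsdhl (-0.0079) and Insig2 (0.023), and without chloride replicate 1 in Hsd17b7 (-0.061).

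Over all genes, 182 were called higher and 70 lower. These counts were 2 and 1 with no minimum, 5 and 6 with reference transcripts only, 112 and 36 without ambiguous assembled transcripts, 240 and 118 with FPKM, 336 and 154 under median-of-ratios factors. They were 629 and 405 of 11963 protein-coding genes when TPM was rescaled to those genes alone, and 707 and 362 for voom. With 1 library left out they were 8 to 126 and 7 to 46, lowest without propionate replicate 3. The causes were not tested.

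The labels give replicates 2 and 3 in both groups. With the replicate block 268 genes were higher and 107 lower, no member was called, and Stard4 was at 2.0e-05. Same-numbered libraries deviated from their group means with correlations of -0.22 and -0.20 across genes. With 2 propionate libraries, their deviations mirror each other, so these correlations are not independent and cannot decide whether the numbers pair the samples. The labels state no pairing, and the main fit used none.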
